A study of Mus musculus with 40 samples.

Results

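The 10 genes of glucose handling described here are the glucose transporters Slc2a1 and Slc2a4, the glycolytic genes Hk2, Pfkfb3 and Pkm, the lactate dehydrogenase subunit Ldhb, the pyruvate dehydrogenase kinase Pdk4, and Pck1, Gyk and Gpd1, which act on the routes to glycerol 3-phosphate. They were taken by name, as the rows of the count table whose Ensembl identifiers map to these 10 symbols, out of 52636 genes counted. All 10 passed the low-count filter that left 17079 genes for testing.

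Brown adipose tissue, the heat-producing fat of the mouse, was sequenced from 40 male C57BL/6 mice, 5 in each of 8 groups. Every animal had 1 intraperitoneal antibody injection, and tissue was taken 15 h, 5 d or 7 d later. Control mice had 40 mg/kg of an anti-ragweed isotype antibody, and Jag antibody mice had 20 mg/kg each of anti-Jag1 and anti-Jag2, which block ligands of Notch receptors. A further pair of groups, 1 per antibody, had daily T4 (1 ug per g body weight) and T3 (0.05 ug per g) from day 2 and was collected at 7 d. The mice were 10 to 12 weeks old by the design text and 10 to 14 weeks old by the treatment protocol. The antibodies act in the whole animal and not in fat alone, and the bulk tissue holds every cell type of the depot. The labels number the samples of a group without saying more about their origin, so p-values measure the spread between these samples.

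Brown adipocytes take up glucose through GLUT1 (encoded by Slc2a1) and the insulin-responsive GLUT4 (Slc2a4), and glycolysis turns it into pyruvate. Pyruvate is oxidised in mitochondria through pyruvate dehydrogenase or reduced to lactate. Fat cells also need glycerol 3-phosphate to rebuild triglyceride, and they make it from glucose through Gpd1, from pyruvate through Pck1 (glyceroneogenesis) or by phosphorylating glycerol with glycerol kinase, the product of Gyk.

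The 40 libraries held 12217623 to 36511893 counts (median 18949808). All 10 brown adipocyte markers checked were counted in every library, Ucp1 with 12504 to 381309 counts. Control mice 2 and 3 at 15 h stood apart: their myeloid marker level (mean log2 CPM of 10 genes, where CPM is the library-size-scaled count) was 8.61 and 6.67, against 1.15 to 5.07 in the other 38 mice, and their brown adipocyte marker level was 7.47 and 8.13. Skeletal muscle markers differed between antibodies at 5 d, with a mean level of 9.90 ± 3.31 (SD, n = 5) in control and -0.14 ± 1.95 (SD, n = 5) in Jag antibody mice (exact two-sided permutation p = 0.00794, adjusted 0.0546 over 110 tests). In bulk tissue fewer cells of a type and less RNA per cell cannot be told apart.

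Per kilobase of exon, Gpd1, Pck1 and Pdk4 had the highest levels of the 10. Over the 40 mice the median was 1703 CPM per kb for Gpd1, 973 for Pck1 and 655 for Pdk4. Slc2a4 (132), Ldhb (97.2), Pfkfb3 (76.7), Pkm (61.9) and Hk2 (53.1) formed a middle range, and Gyk (16.3) and Slc2a1 (2.98) were lowest. On this scale the median of Slc2a1 was far below that of Slc2a4. The CPM values here and below are scaled to TMM-adjusted library sizes, and without length they are compared within a gene.

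**Figure D1:**
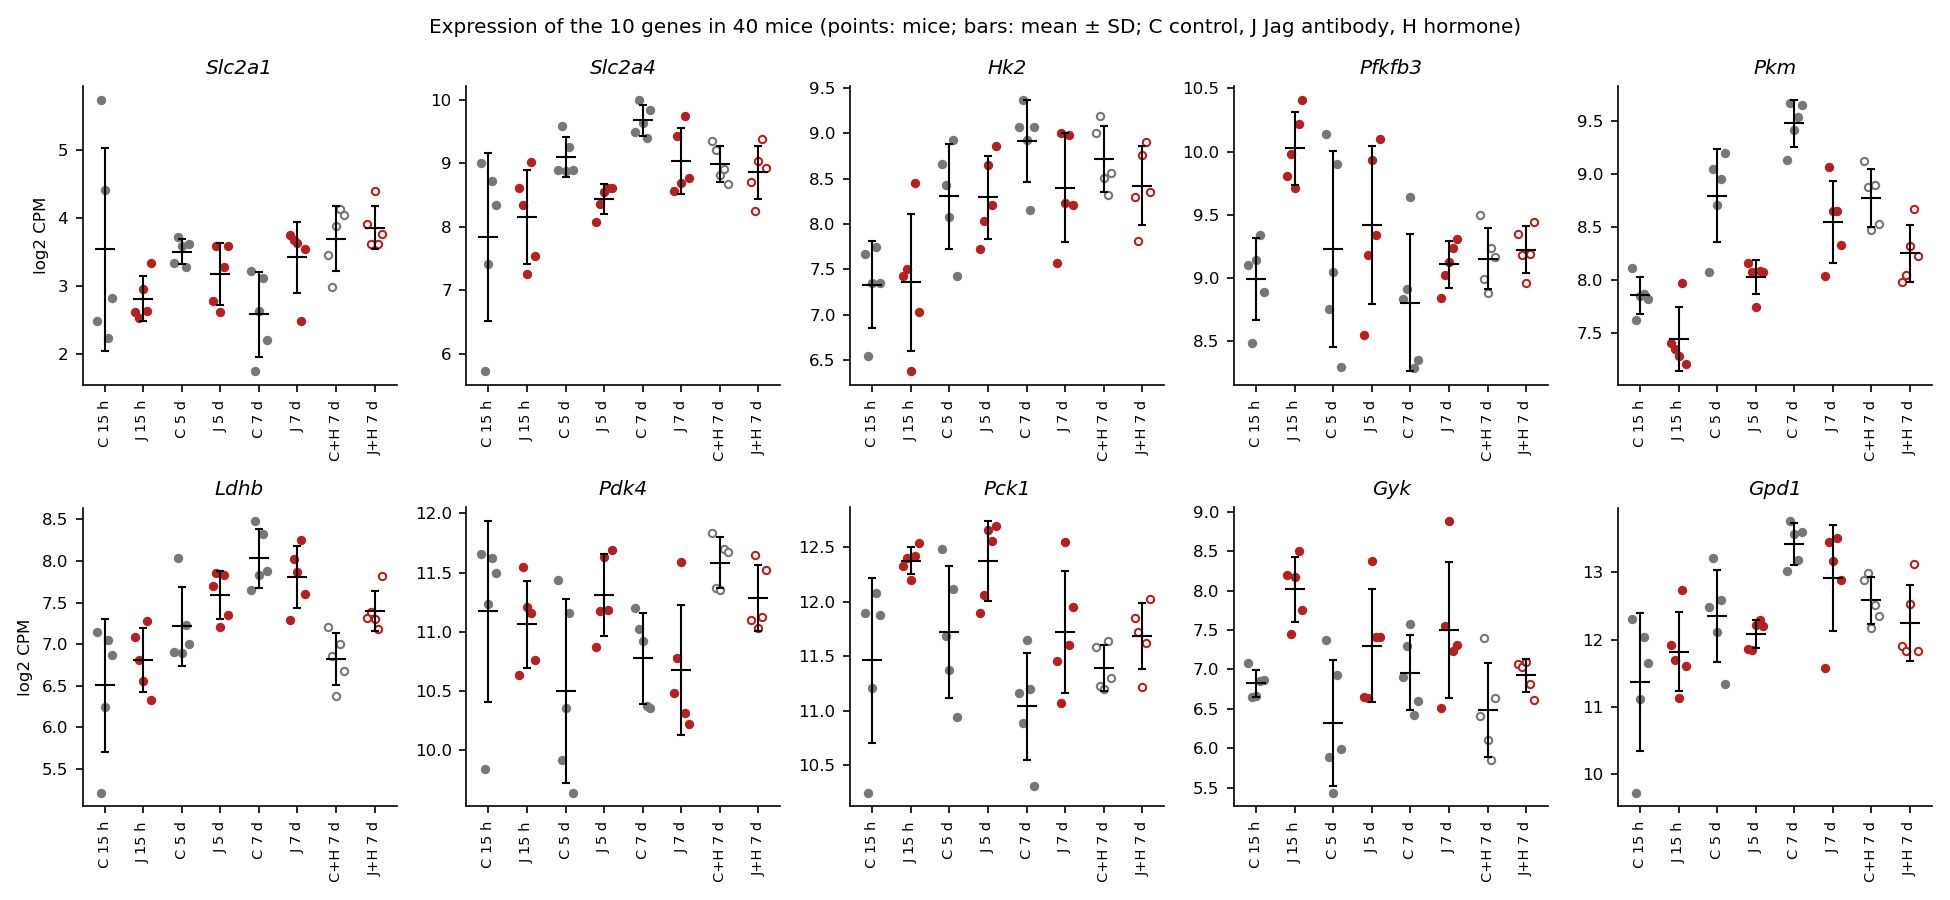
Expression of the 10 genes as log2 CPM (y axis) in the 8 groups (x axis; C control, J Jag antibody, H hormone), with a point per mouse and bars for the mean ± SD of 5 mice. Pkm is highest in control mice at 7 d (9.48 ± 0.22) and lowest in Jag antibody mice at 15 h (7.44 ± 0.30), and control mice 2 and 3 at 15 h lie far from their group for Slc2a1 and Slc2a4.

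Of the 10 genes, Pkm changed most often. Pkm (ENSMUSG00000032294, chromosome 9, 59656368 to 59679375 on GRCm38, plus strand) encodes the muscle-type pyruvate kinase, which makes pyruvate and ATP in the last step of glycolysis. It was called, meaning an adjusted p under 0.05 in edgeR's quasi-likelihood test with Benjamini-Hochberg adjustment over all genes tested, in 6 of 12 comparisons. Ldhb was called in 2, Hk2, Slc2a1, Pdk4 and Slc2a4 in 1 each, and Pfkfb3, Pck1, Gyk and Gpd1 in none.

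In control mice Pkm read 277, 196, 230, 233 and 226 CPM at 15 h (mice 1 to 5). It read 269, 529, 416, 494 and 585 CPM at 5 d. At 7 d the control values were 558, 811, 680, 741 and 803 CPM. Pkm therefore climbed across the control groups, and 4 of 5 mice at each later time lay above every mouse of the time before. In the same groups, in time order, the mean brown adipocyte marker level was 8.67, 9.46 and 10.51. The mitochondrial share of counts was 23.5%, 13.8% and 20.0%. The part of these shifts in the climb of Pkm was not tested.

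Pkm in Jag antibody mice read 169, 163, 155, 250 and 148 CPM at 15 h (mice 6 to 10). It read 285, 269, 214, 271 and 269 CPM at 5 d, and 262, 533, 402, 401 and 321 CPM at 7 d. Every Jag antibody mouse at 7 d lay below every control mouse of that day, and the groups overlapped at 15 h and at 5 d, where control mouse 1 lay inside the range of the Jag antibody mice.

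With hormone at 7 d, Pkm read 555, 468, 353, 475 and 367 CPM in control mice. The Jag antibody mice with hormone read 252, 264, 320, 406 and 299 CPM. Of these Jag antibody mice 4 lay below every control mouse, and mouse 9 overlapped.

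At 5 d Pkm was lower under the antibody, with log2 fold change -0.81 (edgeR adjusted p = 0.00969, SE 0.19). Pkm was the only one of the 10 genes called, where 8.02% of all tested genes were called and 5.93% were called lower. With the muscle marker level as a covariate the change was -1.0 (adjusted p = 0.0244), so the gene was called with and without that adjustment. The log2 fold change at 7 d was -0.91 (SE 0.19, edgeR adjusted p = 0.00875), and again Pkm alone was called of the 10, against 2.50% of all genes called and 1.29% called lower. Groups that do not overlap, as for Pkm at 7 d, made up 3.31% of all genes in that comparison. At 5 d and 7 d the call was lost when only the 10 mice compared were fitted, at changes of -0.87 and -0.90 (adjusted p = 0.0780 and 0.101), and it stood in every fit that left out 1 mouse.

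At 15 h the difference of Pkm was -0.39 (SE 0.19, edgeR adjusted p = 0.401), and with hormone at 7 d it was -0.52 (SE 0.19, adjusted p = 0.204). Neither was called. The change at 7 d did not differ from that at 5 d by the interaction test (adjusted p = 0.906), nor did hormone alter it (log2 difference 0.38, adjusted p = 0.521). These p-values do not show that the changes were equal.

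Hormone lowered Pkm in control mice, with log2 fold change -0.70 (edgeR adjusted p = 0.00380, SE 0.19), and by -0.61 (adjusted p = 0.0181) with the myeloid marker level as a covariate. The groups did not overlap, as for 29.8% of all genes in this comparison. This comparison and that of the antibodies at 7 d share the 5 control mice without hormone, which hold the highest group mean of the gene. Between times Pkm rose by 0.98 (SE 0.19, adjusted p = 0.000430) from 15 h to 5 d and by 0.65 (SE 0.19, adjusted p = 0.0295) from 5 d to 7 d in control mice. The later rise was 0.53 (adjusted p = 0.130) with the muscle level as a covariate, and its call was lost in 5 of 10 fits that left out 1 mouse. In Jag antibody mice it rose by 0.57 (SE 0.19, adjusted p = 0.0423) from 15 h to 5 d, a call that 8 of 12 alternative settings did not keep. From 5 d to 7 d the difference was 0.55 (adjusted p = 0.0928, SE 0.19), not called.

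In the order of group means Pkm ran from control at 7 d through control at 5 d, control with hormone, Jag antibody at 7 d, Jag antibody with hormone, Jag antibody at 5 d and control at 15 h to Jag antibody at 15 h. Of these steps only the first and the last exceeded the larger SD of the groups they join. Another gene model, Gm49759, lies inside Pkm on the same strand and took 60026 counts against 302782 for Pkm over all libraries. It did not move with Pkm at 7 d (log2 fold change -0.03, adjusted p = 0.962), and with the counts of both models summed Pkm was still called at 5 d (-0.68, adjusted p = 0.0210) and at 7 d (-0.79, adjusted p = 0.0161). From 15 h to 5 d in control mice Gm49759 fell by 1.54 on the log2 scale (adjusted p = 0.00105), against the direction of Pkm, and the summed rise was 0.51 (adjusted p = 0.0282). In Jag antibody mice the summed difference was 0.33 (adjusted p = 0.209), not called.

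The genes most like Pkm over the 40 mice, by Pearson's r of log2 CPM, were the processed pseudogene Gm1840 (r = 0.947), Gpi1 (0.936) and Eno1 (0.927). Over the 8 group means they were Eno1 (0.985), Tkt (0.981) and Ctsd (0.978). Gpi1 encodes glucose 6-phosphate isomerase, Eno1 an enolase and Tkt the transketolase of the pentose phosphate pathway. These are descriptions over libraries that share depth and composition.

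**Figure D2:**
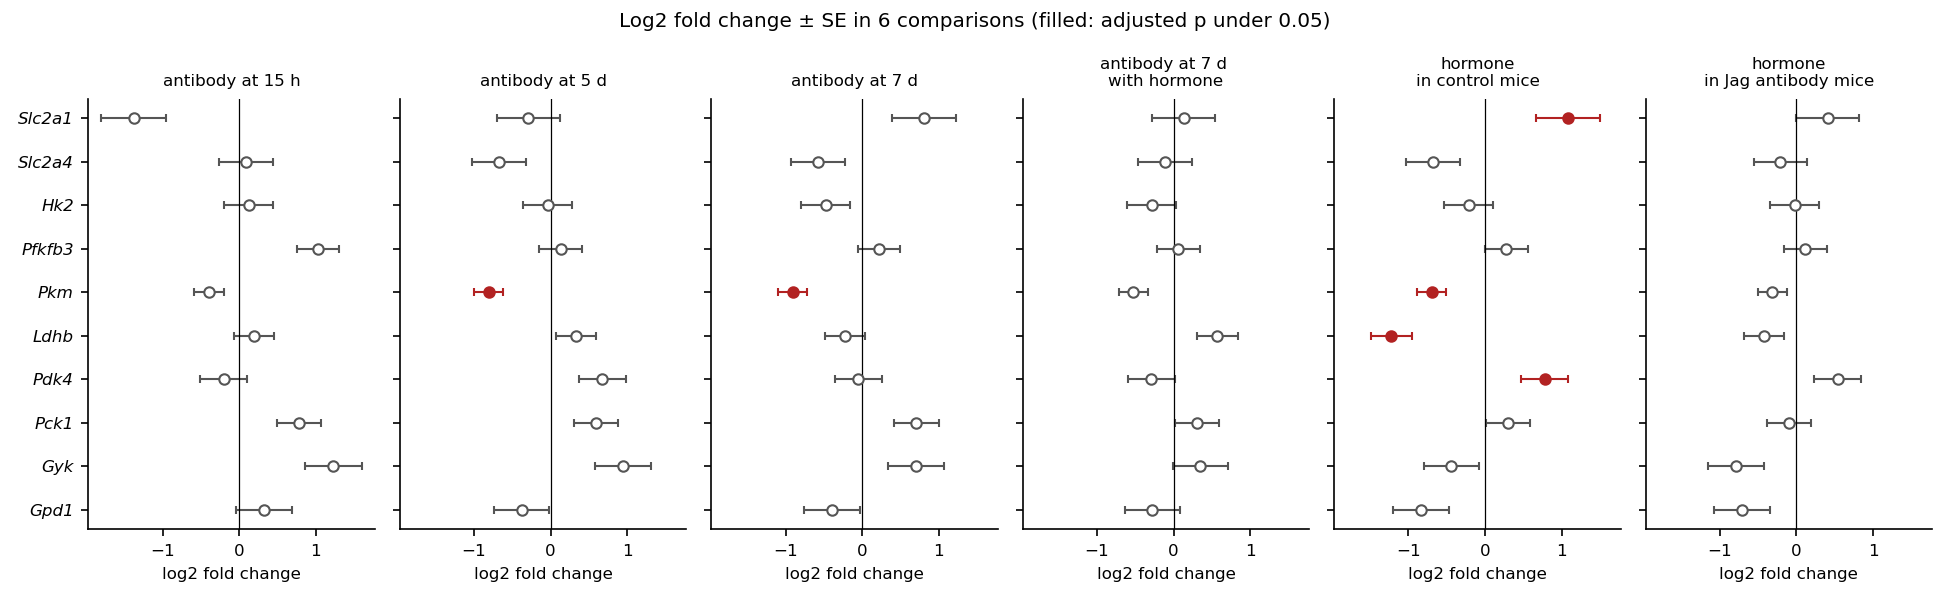
Log2 fold change ± SE (x axis) of the 10 genes (y axis) for the antibody at 15 h, 5 d, 7 d and 7 d with hormone and for hormone in each antibody group, with filled points where the edgeR adjusted p is under 0.05. Pkm is filled at 5 d (-0.81), at 7 d (-0.91) and with hormone in control mice (-0.70), and all points are open at 15 h.

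Slc2a1 (ENSMUSG00000028645, chromosome 4, 119108711 to 119137983, plus strand) was low, at 3.25 to 53.7 CPM. At 15 h the control mice read 5.52, 53.7, 21.3, 4.61 and 6.99 CPM, and the Jag antibody mice read 6.06, 5.67, 7.66, 6.11 and 9.98 CPM. The 2 high values are the control mice with high myeloid markers. The difference was -1.38 (SE 0.42, edgeR adjusted p = 0.0915), not called, and it turned to 0.32 (adjusted p = 1.0) without those 2 mice and was -0.35 (adjusted p = 0.952) with the myeloid level as a covariate.

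Hormone raised Slc2a1 in control mice. Without hormone at 7 d the control mice read 9.28, 3.25, 6.10, 8.61 and 4.50 CPM, and with hormone they read 10.8, 7.80, 14.6, 17.5 and 16.4 CPM. Of the 5 mice with hormone, 4 lay above every mouse without it. The log2 fold change was 1.08 (SE 0.42, edgeR adjusted p = 0.0360), where 43.2% of all genes were called. The myeloid marker level was 2.19 ± 0.71 without and 3.90 ± 0.49 with hormone (SD, n = 5, exact two-sided permutation p = 0.00794, adjusted 0.0546), and with it as a covariate the change was 0.20 (adjusted p = 0.592). The call was also lost in 6 of 10 fits that left out 1 mouse. In Jag antibody mice the values were 13.4, 12.7, 12.4, 5.52 and 11.6 CPM without hormone and 15.0, 12.2, 20.9, 12.2 and 13.5 CPM with it, and the gene was not called.

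Slc2a1 showed its highest group mean in Jag antibody mice with hormone and its lowest in control mice at 7 d, and no neighbours in the order of the 8 means differed beyond their spread. From 5 d to 7 d in control mice its groups did not overlap (9.61 to 13.1 CPM, then 3.25 to 9.28 CPM), as for 4.41% of all genes, with no call. The 200 bases before the gene are shown because Slc2a1 was raised by hormone in 1 antibody group; they come from RefSeq on GRCm38.p6, at chr4:119108511-119108710 on the plus strand, 5′ to 3′, and the capitals mark a GC box (GGGCGG, here in reverse) whose first base is at position -45 from the RefSeq start.

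Slc2a1: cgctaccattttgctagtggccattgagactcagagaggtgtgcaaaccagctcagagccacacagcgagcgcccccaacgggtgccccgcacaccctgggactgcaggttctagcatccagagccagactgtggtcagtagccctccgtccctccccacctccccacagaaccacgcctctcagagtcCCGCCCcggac

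Slc2a4 (ENSMUSG00000018566, chromosome 11, 69942539 to 69948188, minus strand) encodes the insulin-responsive transporter. At 15 h the control mice read 514, 52.9, 170, 421 and 325 CPM, the 2 lowest being the mice with high myeloid markers. At 5 d they read 474, 770, 469, 609 and 473 CPM, and at 7 d 720, 1026, 794, 674 and 919 CPM. The rise from 15 h to 5 d was 0.91 (SE 0.35, edgeR adjusted p = 0.0398), where 36.4% of all genes were called. Without control mice 2 and 3 it was 0.48 (adjusted p = 0.272), and with the myeloid level as a covariate 0.24 (adjusted p = 0.509).

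Under the antibody Slc2a4 lay lower at 5 d, at 269, 327, 372, 391 and 392 CPM. All 5 Jag antibody mice were below all 5 control mice, as for 4.94% of all genes, but the difference of -0.67 (edgeR adjusted p = 0.246) did not pass the test. With the myeloid level as a covariate Slc2a4 was called lower. At 7 d the Jag antibody mice read 377, 692, 415, 854 and 435 CPM, and 3 of 5 lay below every control mouse. With hormone the control mice read 655, 592, 449, 482 and 409 CPM, all below those without hormone, again with no call, where 29.8% of all genes did not overlap. The Jag antibody mice with hormone read 419, 306, 524, 666 and 484 CPM, spread through the same range.

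The group means of Slc2a4 ran from control at 7 d down to control at 15 h, and 2 steps exceeded the larger SD, that from control at 7 d to control at 5 d and that from Jag antibody with hormone to Jag antibody at 5 d. Of 10 tested genes of glucose transport, a list that also holds the GLUT4 traffic regulators Tbc1d1 and Tbc1d4 and the uptake inhibitor Txnip, the only one called under the antibody at 15 h, 5 d or 7 d was Slc2a10 at 5 d, at log2 fold change -0.80 (adjusted p = 0.0386, SE 0.25), and it was also called between antibodies with hormone at 7 d (-1.0, SE 0.25, adjusted p = 0.0304). With the muscle covariate it was not called at 5 d.

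**Figure D3:**
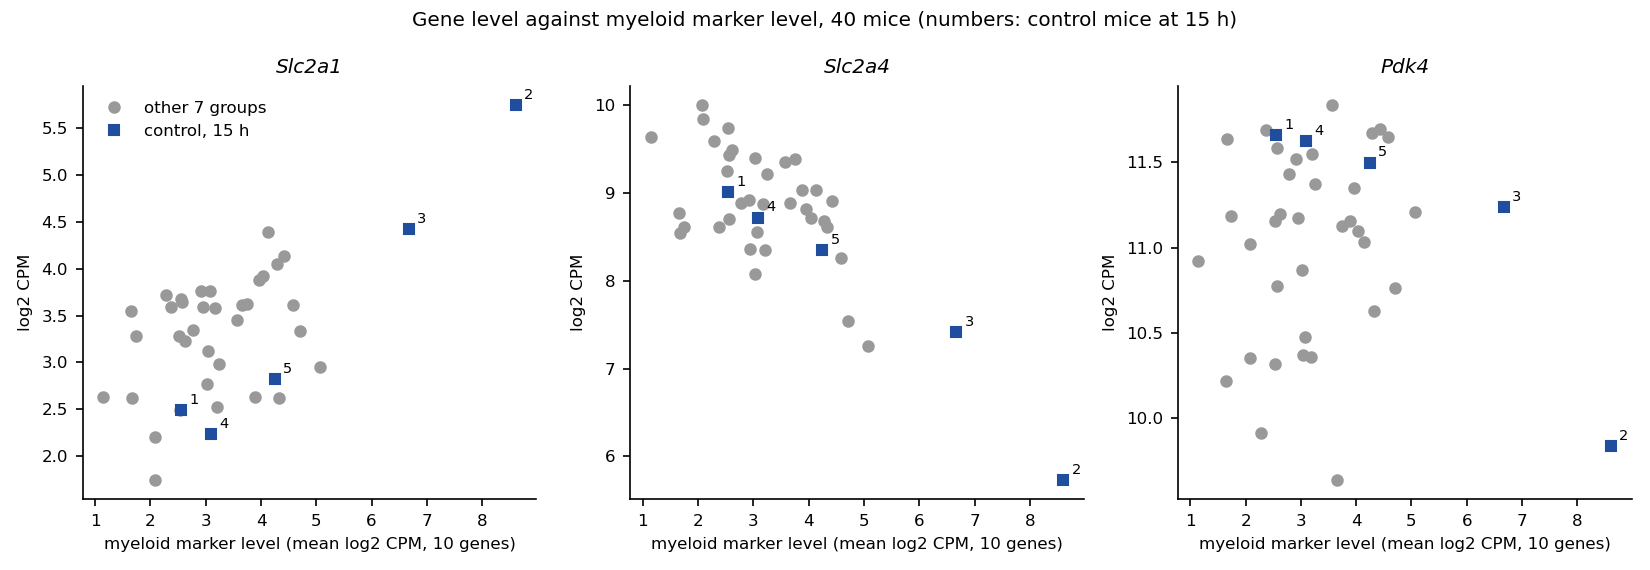
Level of Slc2a1, Slc2a4 and Pdk4 (y axis, log2 CPM) against the myeloid marker level (x axis, mean log2 CPM of 10 genes) in 40 mice, with the control mice at 15 h as numbered squares. Control mice 2 and 3 at 15 h, at myeloid levels 8.61 and 6.67, have the highest Slc2a1 (53.7 and 21.3 CPM), and mouse 2 has the lowest Slc2a4 (52.9 CPM).

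Hk2 (ENSMUSG00000000628, chromosome 6, 82725025 to 82774454, minus strand) encodes the insulin-regulated hexokinase that phosphorylates glucose on entry. The control mice at 15 h read 204, 93.0, 162, 215 and 163 CPM. At 5 d they read 407, 346, 270, 485 and 172 CPM, 4 of 5 above every mouse at 15 h. The rise was 1.00 (SE 0.32, edgeR adjusted p = 0.0156), and it was 0.85 (adjusted p = 0.108) without control mice 2 and 3 at 15 h and 0.45 (adjusted p = 0.325) with the myeloid level as a covariate. The Jag antibody mice read 172, 181, 82.7, 349 and 130 CPM at 15 h and 211, 262, 401, 296 and 465 CPM at 5 d, where the difference, 0.84, was not called (adjusted p = 0.0714, SE 0.32). Hk2 was called in no antibody and no hormone comparison.

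At 7 d Hk2 lay at 285 to 661 CPM in control mice, 190 to 513 in Jag antibody mice, 321 to 584 in control mice with hormone and 224 to 480 in Jag antibody mice with hormone. These 4 groups overlapped. The step from Jag antibody at 5 d to Jag antibody at 15 h was the only one in its order of means beyond the larger SD.

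Pfkfb3 (ENSMUSG00000026773, chromosome 2, 11471433 to 11554077, minus strand) makes and breaks down fructose 2,6-bisphosphate, the activator of phosphofructokinase. The control mice at 15 h read 549, 357, 565, 647 and 474 CPM, and the Jag antibody mice read 896, 1012, 837, 1188 and 1362 CPM. All 5 Jag antibody mice lay above all 5 control mice. The log2 fold change was 1.03 (SE 0.28, edgeR adjusted p = 0.0566), just outside the threshold. At 5 d the range was 314 to 1125 CPM in control and 374 to 1098 CPM in Jag antibody mice, and at 7 d 312 to 797 and 459 to 633 CPM, with full overlap. With hormone it was 470 to 725 and 497 to 697 CPM.

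Along with Pfkfb3, Pck1 and Gyk had all 5 Jag antibody mice above all 5 control mice at 15 h, a pattern of non-overlap that 2.48% of all genes showed in either direction. None of the 10 genes was called at 15 h by edgeR, where 1.14% of all genes were. An unadjusted p under 0.05 was held by 5 of the 10 and by 2052 of all 17079 genes. DESeq2 called 3 (Slc2a1, Pfkfb3 and Gyk), and it also called more of all genes than edgeR, as counted at the end. Without control mice 2 and 3 Pfkfb3 differed by 0.93 (adjusted p = 0.625). Of the 4 genes of the PFKFB family, 1 was called across the antibody comparisons, Pfkfb4 at 5 d (-1.41, SE 0.44, adjusted p = 0.0415), where 8.02% of all genes were called. Pfkfb4 was not called with the muscle covariate. The antisense model Gm10851 overlaps Pfkfb3 with 7857 counts against 555887, and whether the counts used the strand is not given in the sources used here.

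Pck1 (ENSMUSG00000027513, chromosome 2, 173153048 to 173159273, plus strand) encodes the cytosolic phosphoenolpyruvate carboxykinase, the entry enzyme of glyceroneogenesis. The control mice at 15 h read 3806, 1211, 2362, 4324 and 3775 CPM. The Jag antibody mice read 5153, 5421, 4699.6, 5473 and 5938 CPM, close together and above all controls. The difference of 0.79 (SE 0.29, edgeR adjusted p = 0.179) was not called, and it was 0.43 (adjusted p = 1.0) without control mice 2 and 3, the 2 lowest of the group.

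At 5 d Pck1 read 5724, 3291, 2648, 4435 and 1968 CPM in control and 3824, 4279, 6459.8, 6017 and 6645 CPM in Jag antibody mice. At 7 d it read 2292, 1886, 3209, 2351 and 1265 CPM in control and 2806, 2143, 5989, 3107 and 3958 CPM in Jag antibody mice. The differences, 0.59 at 5 d (adjusted p = 0.212, SE 0.29) and 0.71 at 7 d (adjusted p = 0.167, SE 0.29), were not called, and the groups overlapped at both times. At 7 d Pck1 was called higher with the myeloid level as a covariate. With hormone the ranges were 2350.0 to 3196 and 2381 to 4171 CPM. Pck1 also lay lower at 7 d than at 5 d in control mice (-0.72, SE 0.29, adjusted p = 0.105) and in Jag antibody mice (-0.60, SE 0.29, adjusted p = 0.264), without a call. Its highest group mean was Jag antibody at 15 h and its lowest control at 7 d, and only the step from Jag antibody at 5 d to Jag antibody at 7 d exceeded the larger SD.

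Gyk (ENSMUSG00000025059, named Gk in the annotation, chromosome X, 85701937 to 85776819, minus strand) encodes glycerol kinase. The control mice at 15 h read 135, 100, 101, 115 and 117 CPM, and the Jag antibody mice read 293, 175, 289, 364 and 216 CPM. All 5 Jag antibody mice lay above all 5 control mice. The log2 fold change was 1.23 (SE 0.37, edgeR adjusted p = 0.0828), and 1.13 (adjusted p = 0.775) without control mice 2 and 3. At 5 d the values were 166, 59.2, 43.1, 121 and 63.7 CPM in control and 100, 99.7, 333, 171 and 171 CPM in Jag antibody mice, a difference of 0.95 (SE 0.37, adjusted p = 0.104). At 7 d the ranges were 85.5 to 191 and 91.4 to 472 CPM, and with hormone 57.5 to 169 and 97.9 to 136 CPM. Hormone in Jag antibody mice gave -0.79 (SE 0.37, adjusted p = 0.155). No neighbours in the order of its group means, from Jag antibody at 15 h down to control at 5 d, differed beyond the larger SD.

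The sequences before Pck1 and Gyk are shown because both genes stood above control at 15 h with no overlap. They are from RefSeq on GRCm38.p6, 5′ to 3′, at chr2:173152848-173153047 on the plus strand and chrX:85776820-85777019 on the minus strand. Capitals mark a cAMP response element core (TGACG, in reverse) with its first base at position -90 in Pck1. In Gyk they mark an E-box (CACGTG) at -58 and GC boxes at -114, -73 and -13.

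Pck1: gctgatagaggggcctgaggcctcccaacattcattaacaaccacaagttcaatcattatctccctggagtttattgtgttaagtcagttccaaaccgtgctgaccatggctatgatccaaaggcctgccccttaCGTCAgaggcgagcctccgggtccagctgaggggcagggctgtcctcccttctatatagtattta

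Gyk: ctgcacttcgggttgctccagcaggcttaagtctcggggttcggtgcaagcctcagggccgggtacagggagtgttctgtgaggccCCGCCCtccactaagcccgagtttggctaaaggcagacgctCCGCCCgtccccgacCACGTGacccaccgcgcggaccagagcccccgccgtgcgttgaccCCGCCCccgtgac

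Gpd1 (ENSMUSG00000023019, chromosome 15, 99717515 to 99725005, plus strand) encodes the cytosolic glycerol 3-phosphate dehydrogenase, which makes glycerol 3-phosphate from a glycolytic intermediate. At 7 d control mice read 8305, 13913, 12143, 9318 and 12394 CPM, the highest group of the gene. With hormone the control mice read 7617, 8109, 4632, 5882 and 5229 CPM, all lower than every mouse without it, where 29.8% of all genes did not overlap. The log2 fold change was -0.83 (SE 0.37, edgeR adjusted p = 0.0631), not called, and -0.15 (adjusted p = 0.718) with the myeloid level as a covariate.

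Gpd1 in Jag antibody mice spread from 3052 to 11646 CPM at 7 d and from 3644 to 8929 CPM with hormone. At 15 h it lay at 843 to 5074 CPM in control and 2242 to 6867 CPM in Jag antibody mice, and at 5 d at 2598 to 9526 and 3699 to 5012 CPM. Between times its differences were not called, 0.87 (SE 0.37, adjusted p = 0.0592) and then 0.98 (SE 0.37, adjusted p = 0.0819) in control mice, and 0.97 (SE 0.37, adjusted p = 0.130) from 5 d to 7 d in Jag antibody mice. The first of these was 0.51 (adjusted p = 0.338) without control mice 2 and 3 at 15 h and 0.16 (adjusted p = 0.750) with the myeloid level as a covariate. No neighbours in its order of means differed beyond the larger SD.

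Ldhb (ENSMUSG00000030246, chromosome 6, 142490249 to 142507957, minus strand) encodes the lactate dehydrogenase subunit of oxidative tissues. Its lowest and highest groups were both control groups, at 15 h and 7 d. At 7 d control mice read 200, 357, 228, 321 and 236 CPM, and with hormone they read 147, 115, 82.6, 128 and 102 CPM. Every mouse with hormone lay below every mouse without, in a comparison where 29.8% of all genes did not overlap. Ldhb was lower with hormone, at log2 fold change -1.22 (edgeR adjusted p = 0.000515, SE 0.27), the largest change of a called member in that comparison, and with the myeloid level as a covariate by -0.80 (adjusted p = 0.00781).

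Ldhb in Jag antibody mice read 156, 260, 234, 306 and 194 CPM at 7 d and 159, 168, 158, 145 and 225 CPM with hormone, which overlap, and the gene was not called. The hormone effects in the 2 antibody groups differed by 0.79 (SE 0.37, unadjusted p = 0.0402 and adjusted p = 0.387 in edgeR's test), so the difference did not pass. With hormone the antibodies themselves differed by 0.57 (SE 0.26, adjusted p = 0.377). Jag antibody mice rose from 136, 112, 93.8, 155 and 80.4 CPM at 15 h to 208, 232, 148, 228 and 163 CPM at 5 d, by 0.76 (SE 0.27, edgeR adjusted p = 0.0481), and 9 of 12 alternative settings did not keep that call, where 14.5% of all genes were called. The myeloid level was 4.24 at 15 h and 2.35 at 5 d there (exact permutation p = 0.00794, adjusted 0.0546, n = 5), and with it as a covariate the difference was 0.31 (adjusted p = 0.384). In control mice the steps from 15 h to 5 d (0.63, SE 0.26, adjusted p = 0.0589) and from 5 d to 7 d (0.78, SE 0.27, adjusted p = 0.0551) were not called. The earlier step was 0.32 (adjusted p = 0.386) without control mice 2 and 3 and 0.20 (adjusted p = 0.583) with the myeloid covariate. No neighbours in its order of group means differed beyond the larger SD.

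The bases before Ldhb are shown because it had the largest called change with hormone of the 10 genes. They are from RefSeq on GRCm38.p6 at chr6:142507958-142508157 on the minus strand, 5′ to 3′. Capitals mark the nuclear receptor core motif AGGTCA, in reverse, with its first base at position -157. The 200 bases from -231 to -32 of Pdk4, which hormone raised in control mice, are not shown. They hold none of the motifs described below.

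Ldhb: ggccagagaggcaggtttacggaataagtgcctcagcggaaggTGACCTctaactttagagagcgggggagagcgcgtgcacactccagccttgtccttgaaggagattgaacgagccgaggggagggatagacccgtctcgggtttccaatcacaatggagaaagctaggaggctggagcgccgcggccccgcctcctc

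In all, 5 short motifs were searched on both strands in windows of 300 bases, from 250 before to 50 after each RefSeq start. Entries were found for 8 of the 10 genes, in 10 windows, and Slc2a4 and Gpd1 had none. TGGGAA, the core bound by the Notch effector RBPJ, was in the windows of 2 genes (Pck1 and Pdk4) and in 25.6% of all 32851 windows. AGGTCA was in 2 genes (Ldhb and Pkm) and 16.3% of windows, TGACG in 5 and 20.8%, CACGTG in 2 and 7.15%, and GGGCGG in 6 and 35.7%. These matches describe letters only.

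Pdk4 (ENSMUSG00000019577, chromosome 6, 5483351 to 5496309, minus strand) encodes a kinase that switches off pyruvate dehydrogenase and so spares glucose. At 7 d control mice read 2349.7, 2082, 1938, 1325 and 1310.4 CPM. With hormone they read 3657, 2646, 2607, 3319 and 3258 CPM, all above every mouse without, where 29.8% of all genes did not overlap. Pdk4 rose with hormone, at log2 fold change 0.78 (edgeR adjusted p = 0.0377, SE 0.31), and by 1.18 (adjusted p = 0.00303) with the myeloid level as a covariate. The call was lost in 5 of 10 fits that left out 1 mouse (adjusted p up to 0.0934).

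Pdk4 in Jag antibody mice read 1426, 1754, 3074, 1275 and 1190.0 CPM at 7 d and 2191, 3213, 2094, 2237 and 2935 CPM with hormone, with mouse 8 without hormone inside the upper range, and no call. At 5 d it read 2765, 964, 1311, 2284 and 796 CPM in control and 1868, 2312, 3177, 2329 and 3308 CPM in Jag antibody mice. That difference was 0.68 (SE 0.31, edgeR adjusted p = 0.173), and 0.46 (adjusted p = 0.719) with the muscle level as a covariate. From 15 h to 5 d in control mice it was -0.63 (SE 0.31, adjusted p = 0.0986), not called. Without control mice 2 and 3 it was -0.87 (adjusted p = 0.0535), and with the myeloid covariate it was -1.04 (adjusted p = 0.0162), which is called. No neighbours in its order of group means, from control with hormone down to control at 5 d, differed beyond the larger SD.

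Side by side, hormone in control mice called 4 of the 10 genes, Slc2a1 and Pdk4 higher and Pkm and Ldhb lower, where 43.2% of all genes were called, 20.3% higher and 22.9% lower, so the 10 genes were called about as often as all genes. Besides the myeloid markers, the brown adipocyte marker level was lower with hormone in control mice (8.98 against 10.51) and the fibroblast level higher (7.24 against 5.81), each with exact permutation p = 0.00794 (adjusted 0.0546, n = 5). With the same p, proliferating cell markers were at 3.27 against -0.70, the slope of log2 CPM (less the mean over mice) on log2 exonic length at 0.17 against -0.23, and the mitochondrial share of counts at 12.8% against 20.0%. The summed level of the 10 brown adipocyte markers ran from 11340 to 18654 CPM with hormone and from 35297 to 85409 CPM without. The part of these shifts in the changes of Pkm, Ldhb and Pdk4 was not tested beyond the myeloid covariate. In Jag antibody mice edgeR called 0 of the 10 genes for hormone, against 9.50% of all genes, and DESeq2 called 0. An unadjusted p under 0.05 was held there by 1 of the 10 and by 4603 of all 17079 genes.

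Between antibodies with hormone at 7 d edgeR called 0 of the 10 (2 at an unadjusted p under 0.05, 0 by DESeq2) against 1.14% of all genes. The interaction of antibody and hormone called 0 (1 unadjusted, 0 by DESeq2) against 0.00586%, and that of antibody with day, 7 d against 5 d, called 0 (0 unadjusted, 0 by DESeq2) against 1.29%. Of all 17079 genes, 2026, 2103 and 2844 had an unadjusted p under 0.05 in these comparisons, in that order. In time, 3 of the 10 rose from 15 h to 5 d in control mice (36.4% of all genes were called, 16.2% higher) and 1 from 5 d to 7 d (9.13%, 4.71% higher). Of the 3 (Slc2a4, Hk2 and Pkm), only Pkm was still called without control mice 2 and 3 or with the myeloid covariate, and Slc2a1 was then called too. With all mice Slc2a1 differed by -0.70 (edgeR adjusted p = 0.178), not called. Without control mice 2 and 3 its direction turned: the remaining values at 15 h, 5.52, 4.61 and 6.99 CPM, lay below the 9.61 to 13.1 CPM at 5 d. Among Jag antibody mice 2 rose from 15 h to 5 d (14.5%, 8.22% higher). From 5 d to 7 d edgeR called 0 of the 10 against 3.29% of all genes, and DESeq2 called 0. An unadjusted p under 0.05 was held there by 3 of the 10 and by 3078 of all genes. In 5 comparisons none of the 10 genes had groups apart: between antibodies with hormone (6.59% of all genes were apart), with hormone in Jag antibody mice (12.0%), from 15 h to 5 d in control (10.4%) and in Jag antibody mice (13.6%), and from 5 d to 7 d in Jag antibody mice (4.13%).

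Beyond the 10 genes, the enzymes of glycolysis were read from a list of 22, of which 20 could be tested. Gapdh had only 165 counts over all 40 libraries and Pklr 3, so neither was tested. At 5 d, 8 of the 20 were lower under the antibody and none was higher, where 8.02% of all genes were called and 5.93% were called lower. Aldoa, Eno3, Gpi1, Pfkm, Pgam2, Pkm and Tpi1 were among those lower. The largest change was that of Pgam2, the muscle form of phosphoglycerate mutase, at log2 fold change -9.69 (adjusted p = 0.0231, SE 2.64). Eno3 and Pfkm are also known as muscle forms, and the muscle marker level differed by -10.04 in the same comparison. Hepatocyte markers differed there too, at a mean level of -2.58 in Jag antibody and -0.07 in control mice (exact permutation p = 0.00794, adjusted 0.0546), and their part in these changes was not tested. With the muscle level as a covariate 2 were lower, Pfkp and Pkm. That fit also called far fewer of all genes at 5 d, as counted at the end. The median change of the list was -0.72, against 0.04 over all genes.

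At 7 d the muscle level was 3.44 ± 5.47 in control and 4.77 ± 4.72 in Jag antibody mice (SD, n = 5), and 2 of 20 glycolytic enzymes were lower, Gpi1 (-0.94, SE 0.21, adjusted p = 0.0133) and Pkm. With the muscle covariate the lower enzymes were 4, Eno1, Gpi1, Pfkl and Pkm. The median change was -0.52, against 0.05 over all genes. With hormone in control mice, where 22.9% of all genes were called lower and 20.3% higher, 8 of 20 were lower, among them Aldoa (-1.43, SE 0.42, adjusted p = 0.00599), and 2 were higher, the hexokinase Hk3 (3.21, SE 0.77, adjusted p = 0.00133) and Eno2. Hk3 is known from blood cells, and myeloid markers were higher with hormone. The change of Hk3 with the myeloid level as a covariate is not given here. With the myeloid covariate 6 were lower and 1 higher. The share of all genes called under the muscle or myeloid covariate is not set beside the counts of this list. From 15 h to 5 d in control mice 9 of 20 rose and 1 fell, where 36.4% of all genes were called and 16.2% were called higher. Without control mice 2 and 3, 5 rose, where 2093 of 17589 genes were called.

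**Figure D4:**
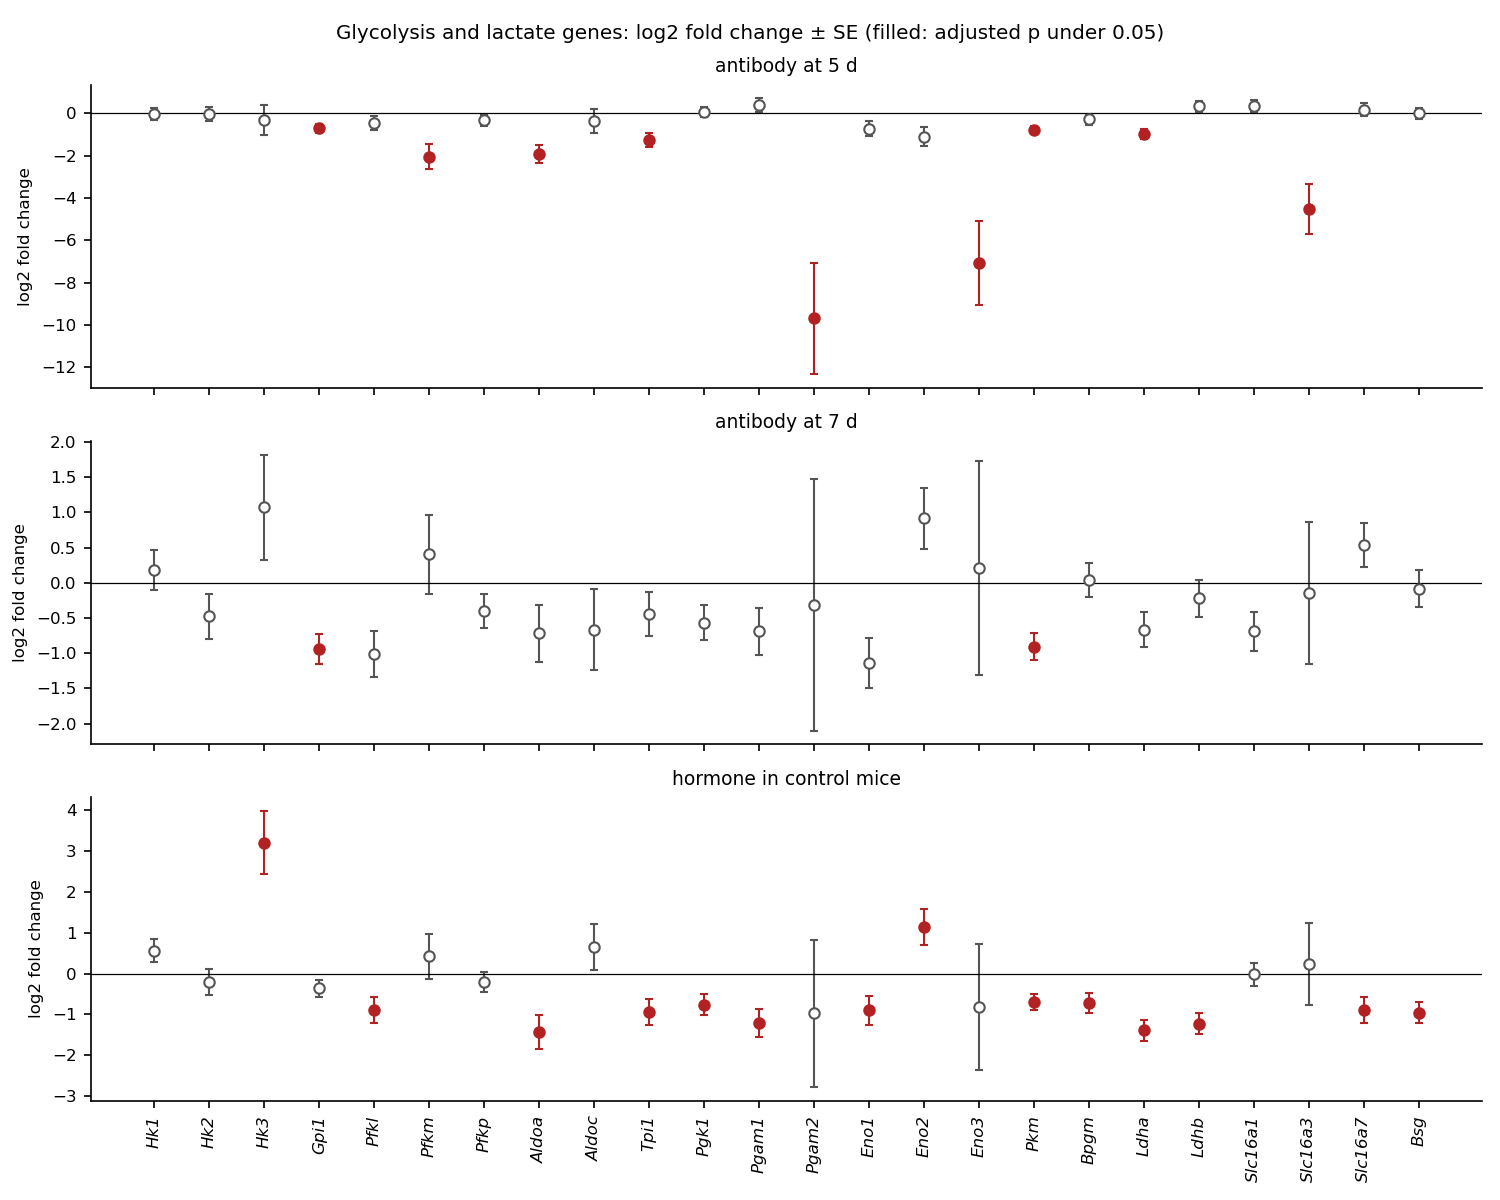
Log2 fold change ± SE (y axis) of glycolysis and lactate genes (x axis) for the antibody at 5 d, the antibody at 7 d and hormone in control mice, filled where the edgeR adjusted p is under 0.05. At 7 d only Gpi1 (-0.94) and Pkm (-0.91) are filled, while at 5 d Pgam2 (-9.69) is the lowest point. The y axes of the panels differ in scale.

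Lactate handling had 7 tested genes. At 5 d 2 were lower under the antibody (5.93% of all genes were called lower), Ldha (-0.98, SE 0.25, adjusted p = 0.0163), the partner subunit of Ldhb, and the lactate exporter Slc16a3 (-4.54, SE 1.18, adjusted p = 0.0169). With the muscle covariate both calls were lost. With hormone 4 were lower in control mice (22.9% of all genes were called lower): Bsg, Ldha, Ldhb and the transporter Slc16a7. Ldha fell by 1.38 (SE 0.26, adjusted p = 0.000103) there and by 0.98 (SE 0.25, adjusted p = 0.0126) in Jag antibody mice. Of 14 genes of pyruvate dehydrogenase and its control, 1 was called between antibodies at 7 d (2.5% of all genes were called), the pyruvate carrier Mpc2 (-1.29, SE 0.36, adjusted p = 0.0430). Hormone in control mice lowered 7 of these 14, where 22.9% of all genes were called lower, Mpc2 the most (-1.66, SE 0.36, adjusted p = 0.000466), and raised 2, Pdk4 and Pdpr (1.48, SE 0.41, adjusted p = 0.00375).

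Among 11 tested genes of glyceroneogenesis and glycerol, Pck2, the mitochondrial relative of Pck1, was called in more comparisons than Pck1, Gyk and Gpd1, which were called in none. Under the antibody it rose by 0.72 (SE 0.20, adjusted p = 0.0274) at 5 d, 0.86 (SE 0.21, adjusted p = 0.0192) at 7 d and 0.87 (SE 0.20, adjusted p = 0.0221) with hormone. Hormone raised it by 1.05 (SE 0.21, adjusted p = 0.000192) in control and 1.06 (SE 0.21, adjusted p = 0.00106) in Jag antibody mice. With the muscle covariate Pck2 was called at 7 d and with hormone but not at 5 d. Aqp7, the glycerol channel of fat cells, rose by 0.73 (SE 0.24, adjusted p = 0.0482) at 5 d. The muscle marker level differed by -10.04 in that comparison, and the fit with the muscle covariate is not given here for Aqp7. The gluconeogenic enzyme Fbp1 fell with hormone in control mice (-2.26, SE 0.71, adjusted p = 0.0101). Its level was low, at a mean log2 CPM of -1.46 over all mice. The 3 genes of the list called lower there were Fbp1, Fbp2 and G6pc3, where 22.9% of all genes were called lower. Fbp2, at a mean log2 CPM of 4.07, was also called lower with hormone in Jag antibody mice (-1.65, SE 0.37, adjusted p = 0.00444).

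Glycogen genes (11 tested) held 2 lower at 5 d (5.93% of all genes were called lower), of which the muscle phosphorylase Pygm was the larger (-7.27, SE 2.24, adjusted p = 0.0408). With hormone 3 of the 11 were lower in each antibody group, near the 22.9% of all genes called lower in control mice, where 9.50% of all genes were called in either direction in Jag antibody mice. The largest changes were Gys2 in control mice (-1.74, SE 0.40, adjusted p = 0.000779) and Ppp1r3c in Jag antibody mice (-1.88, SE 0.26, adjusted p = 1.36e-05). Of the 7 genes that acylate glycerol phosphate, 1 rose at 5 d, Gpat4 (0.70, SE 0.22, adjusted p = 0.0468), where 8.02% of all genes were called. The muscle marker level differed by -10.04 at 5 d, and the fit with the muscle covariate is not given here for Pygm and Gpat4. With hormone in control mice Agpat2 fell (-2.27, SE 0.45, adjusted p = 0.000198) and Gpam rose (1.12, SE 0.33, adjusted p = 0.00599). Of 14 regulators, Mlx, the partner of the glucose-sensing factor Mlxipl, was the 1 called at 15 h (0.66, SE 0.16, adjusted p = 0.0429), where 1.14% of all genes were called. At 5 d Foxo1 and Ppargc1a rose (Ppargc1a by 1.11, SE 0.36, adjusted p = 0.0489) and the insulin receptor substrate Irs1 fell (-1.54, SE 0.42, adjusted p = 0.0227), and none of these was called with the muscle covariate.

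Mouse by mouse, the 10 genes varied together in part. Over the 40 mice, Pearson's r of the deviations from group means passed in 24 of 45 pairs (Benjamini-Hochberg adjusted p under 0.05, 100000 permutations within groups), 20 positive and 4 negative. How often pairs of other genes pass was not computed, so this count does not set the 10 genes apart. The strongest was Slc2a4 with Gpd1 (r = 0.855, Spearman rho 0.828, permutation p = 1e-05 for both, the smallest these permutations give, adjusted 9e-05 and 0.000112; r = 0.792 without the 2 mice farthest from the median). Hk2 followed both, at 0.807 with Gpd1 and 0.741 with Slc2a4. Pdk4 and Pck1 (r = 0.754, rho 0.659, permutation p = 3e-05 and 9e-05, adjusted 0.000193 and 0.000579; 0.639 without 2 mice) varied with Pfkfb3 (0.669 and 0.717).

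Slc2a1 carried the 4 negative pairs. With Slc2a4 its r was -0.761 (rho -0.578, permutation p = 0.00027 and 0.00114, adjusted 0.00101 and 0.00427), -0.577 without the 2 mice farthest from the median of Slc2a1 and -0.61 without control mice 2 and 3 at 15 h. With Hk2 it was -0.465, with Ldhb -0.634 and with Gpd1 -0.626. Pkm, in contrast, had r between -0.239 and 0.376 with Hk2, Pfkfb3, Pdk4, Pck1, Gyk and Slc2a1, and 0.524 to 0.564 with Slc2a4, Gpd1 and Ldhb. Each value is relative to the total of its library, which the genes of a mouse share.

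**Figure D5:**
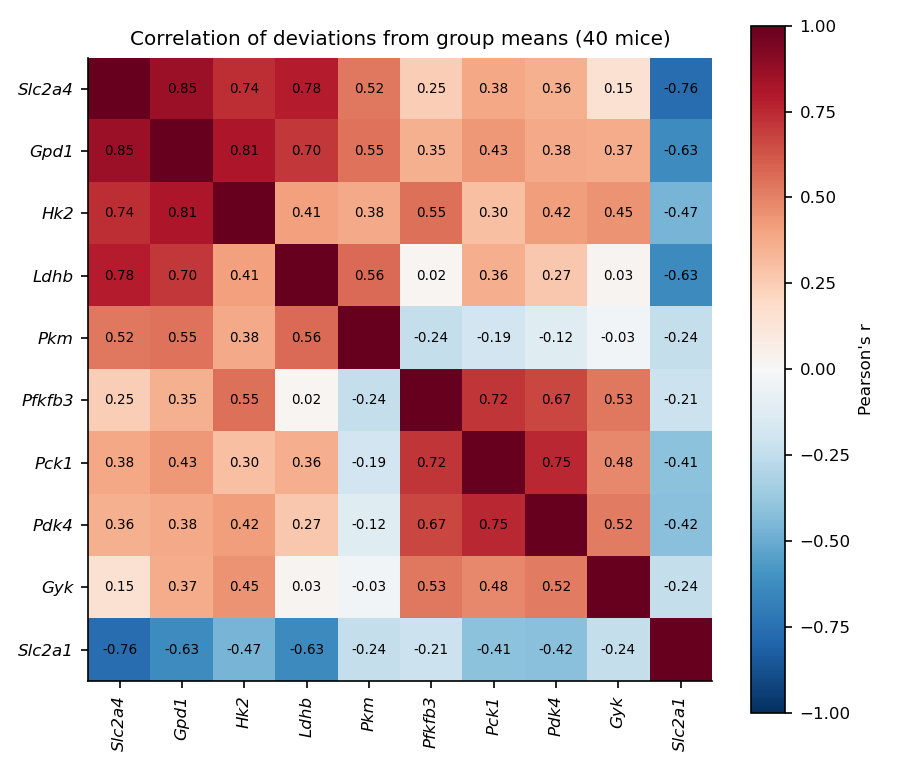
Pearson's r between the 10 genes (both axes), from deviations of log2 CPM from group means in 40 mice, with the colour scale from -1 to 1. Slc2a4, Gpd1, Hk2 and Ldhb form a block with r from 0.407 to 0.855, Slc2a1 has an r below 0 with every other gene, and Pdk4 and Pck1 reach 0.754.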

How the data were processed

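Brown adipose tissue RNA of 40 mice was read as 50 bp single-end reads, per the labels' protocols. Raw counts and FPKM values per gene were deposited by the authors, and the submitters' processing notes name GSNAP and limma without a role or version. The counting program, genome build and use of strand are not given in the sources used here. Of 52636 genes, 52403 matched a symbol in the GRCm38 annotation.

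Counts were analysed with edgeR 4.0.16 (R 4.3.3): TMM scaling, filterByExpr over the 8 groups, 1 quasi-likelihood model over all 40 mice and 12 contrasts, with Benjamini-Hochberg adjustment over 17079 genes and calls at an adjusted p under 0.05. The test was checked on simulated counts. Log2 CPM used a prior count of 2. Levels of marker lists were compared by exact two-sided permutation tests. Alternatives were DESeq2 1.42.0, RLE scaling, no filter, only the groups compared, limma 3.58.1 on log2 FPKM plus 1 or 0.1, length and GC offsets, a replicate block and leaving out each mouse. Added after seeing the data were the muscle and myeloid covariates, the omission of control mice 2 and 3 at 15 h and the sum of Pkm with Gm49759.

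All 10 genes are named. Their tests are given where called or where the unadjusted p is under 0.05. Of the pathway lists, the called gene with the largest change in a direction is given for some comparisons only. Those of glucose transport and of the regulators with hormone, and most of those between times, are among the ones left out. A few others (Slc2a4 at 5 d, Pck2 and Ldha in further comparisons) were added after their values were seen. The genes and lists were chosen with earlier results of these data known. A gene of the glycolysis list is counted but not reported here.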

Additional observations from a re-analysis of the deposited data

Results flagged for a closer look

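In 4 of 80 sets of 5 mice (10 genes in 8 groups), 1 mouse stood far from the others of its group, its gap to the nearest mouse taking more than 0.71 of the group's range. Chance gives about 4 in 80. Slc2a1 was low in mouse 9 of the Jag antibody group at 7 d, at a log2 CPM of 2.49 against 3.55 in the nearest mouse. Pkm was high in mouse 9 of the Jag antibody group at 15 h, at 7.97 against 7.40. Pkm was low in mouse 8 of the Jag antibody group at 5 d, at 7.74 against 8.07. Pdk4 was low in control mouse 2 at 15 h, at 9.84 against 11.24, a mouse whose myeloid marker level was 8.61.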

How the results depend on the processing

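Over 36 single-gene results and 787 alternative values, 668 kept direction and side of the threshold, 71 lost the call, 47 gained one and 1 reversed: Slc2a1 under the antibody at 15 h, 0.32 without control mice 2 and 3. The 36 are those with an unadjusted p under 0.05 in edgeR's test, so Slc2a1 from 15 h to 5 d in control mice is not among them. The number of the 10 genes called at 15 h was 0, and 3 with DESeq2, 2 with length and GC offsets and 0 to 2 leaving out 1 mouse. At 5 d and at 7 d it was 1, and 0 with only the groups compared and 2 with the myeloid covariate; leaving out 1 mouse gave 1 to 3 at 5 d and 1 at 7 d. For hormone it was 4 in control mice (2 to 5 leaving out 1 mouse) and 0 in Jag antibody mice, 1 with length and GC offsets.

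From 15 h to 5 d in control mice it was 3, and 5 with DESeq2 and with limma at either pseudocount, 0 with only the groups compared and 2 to 5 leaving out 1 mouse. It was 2 without control mice 2 and 3 and 3 with the myeloid covariate, but Slc2a4 and Hk2 were not among them. From 5 d to 7 d it was 1, and 2 with DESeq2, the myeloid covariate or length and GC offsets, 0 with no filter, only the groups compared or the muscle covariate, and 0 to 3 leaving out 1 mouse. In Jag antibody mice from 15 h to 5 d it was 2, and 0 with RLE scaling, no filter, the muscle covariate, limma at pseudocount 1 or length and GC offsets, 1 with limma at 0.1 or Pkm summed with Gm49759, and 0 to 3 leaving out 1 mouse. From 5 d to 7 d it was 0, and 1 with the myeloid covariate. The cause was not tested.

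Samples with the same number varied together in some pairs of groups and not in others (r from -0.364 to 0.668), so numbers were not taken as pairs. With a replicate block the genes called were 1 from 15 h to 5 d in Jag antibody mice, and adding length and GC offsets to it gave 0 there and 3 from 5 d to 7 d in control mice. Control and Jag antibody groups share no numbers. Over all genes, 194 were called at 15 h, 555 with DESeq2, 0 with only the groups compared and 3 without control mice 2 and 3, and 1369 at 5 d, 89 with the muscle covariate.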
